A study of Mus musculus with 41 samples.

Results

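The EGF receptor family and its ligands were followed as 10 genes in 41 Trp53-null mouse mammary tumors. The members were the receptors Egfr, Erbb2, Erbb3 and Erbb4 and the ligands Areg, Ereg, Tgfa, Hbegf, Btc and Nrg1, found on the array by their exact gene symbol and read by the probe of highest mean signal. Of the 10 members, 9 were among the 20913 genes bright enough to be tested, and Erbb4 was not. Every tumor arose from Trp53-null ductal tissue grown in a wild-type host: the donors were 4 female BALB/c Trp53-null mice, and the hosts were BALB/c females aged 3 weeks whose inguinal glands had been cleared of their own epithelium. The hosts were fed a low-fat diet throughout (LFD), a high animal fat diet throughout (HFD), the high-fat diet in puberty followed by the low-fat diet (HFD-LFD), or the reverse order (LFD-HFD). There were 29 epithelial tumors (8 on LFD, 8 on HFD, 7 on HFD-LFD and 6 on LFD-HFD) and 12 spindle cell tumors (3 on each regimen). By time of onset, 14 epithelial tumors were labelled early and 15 late, and 3 spindle cell tumors were early and 9 late. The labels call the epithelial group p53 variable and the other group p53 spindle-like. All tumors carried the null donor genotype, and there was no normal tissue or Trp53-wild-type tumor among the samples. In 3 cases 2 tumors shared a mouse number.

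The ErbB receptors are cell surface tyrosine kinases that act as pairs, and they drive ductal growth in the pubertal mammary gland. Amphiregulin, epiregulin, TGF-alpha, HB-EGF and betacellulin are made as membrane-bound precursors that are cut free by ADAM proteases and bind EGFR, and some of them also bind ErbB4. Neuregulin 1 binds ErbB3 and ErbB4. ErbB2 has no known ligand and works as the preferred partner of the others, while ErbB3 has little kinase activity of its own.

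Each tumor was hybridised on a 2-colour array against Universal Mouse Reference RNA, a mixture made from 11 cell lines and called the pool here. A value is the log2 ratio of tumor over pool, so that 0 means equal signal and 1 means a 2-fold higher signal in the tumor. The labels give Cy5 for the tumor and Cy3 for the pool, whereas the study's methods give Cy5 for the pool. The direction used here is that of the labels. The Cy3 signal varied less between arrays (median SD 0.48 on the log2 scale, against 0.75 for Cy5), and 2 genes of the Y chromosome, Ddx3y and Eif2s3y, gave more Cy3 than Cy5 signal on all 41 arrays of tumors grown in female mice from female donors. Ratios of different genes depend on the pool as well as on the tumors, and no gene's level is set against another's. In bulk RNA, fewer cells of a type and less RNA per cell cannot be told apart.

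The probes read short stretches, and the results turn on which stretch was read. Egfr had 3 probes, Erbb4 had 2 and each other member had 1. The Egfr probe of highest signal lay at chr11:16813815-16813874 of NCBI37/mm9 on the plus strand, and the other 2 lay upstream on the same strand at chr11:16787172-16787231 and chr11:16783556-16783615. The file pairs the first with NM_207655 and the 2 upstream probes with NM_007912, another Egfr transcript. The exons and untranslated regions under the probes were not annotated here. The Egfr probes are shown because they did not give the same answer. Those of Erbb3 and Areg are shown because their values are set against cell lineage and diet further on, although Areg did not pass the threshold for diet. Of the first 2 only the first 30 of 60 bases are printed, and the others are whole.
Egfr 3′ probe: gttgcaagccactctaactgtagcaatgaa
Egfr upstream probe 1: gaagtgtggccatctgggtacgttcaatgg
Egfr upstream probe 2: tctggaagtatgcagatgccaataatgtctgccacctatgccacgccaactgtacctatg
Erbb3 probe (chr10:128006424-128006483): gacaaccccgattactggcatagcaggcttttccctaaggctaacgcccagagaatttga
Areg probe (chr5:91570090-91570149): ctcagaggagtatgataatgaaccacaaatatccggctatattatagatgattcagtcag

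Some arrays stood apart. The epithelial tumors 42L4B and 60L, both early tumors on HFD, were scanned in a session of their own on 1 slide, and their log2 ratios over all tested genes had SDs of 2.04 and 2.10. On 60L, 22.02% of spots were marked as outliers, against a median of 0.665% over all arrays. All 12 spindle cell arrays came from 3 slides of a separate scan session that held no epithelial tumor, and the effect of that session cannot be told apart from that of histology. Between 52.4% and 94.9% of spots were well above background in the tumor channel of the epithelial tumors, and between 59.1% and 72.7% in the spindle cell tumors. For 3 HFD tumors of 1 slide (40R4A, 57R and 65R), the authors' table of processed ratios matched the scanner files under exchanged labels (r of 0.965 to 0.968 with the exchanged file and of 0.759 to 0.837 with the one of the same label). The Trp53 probe gave a tumor signal well above background on all 41 arrays, and its log2 ratio lay between -2.25 and 3.74 in the epithelial group and between 0.08 and 1.95 in the spindle cell group. Where this probe lies relative to the deleted part of the donor allele is not given in the sources used here, so it does not check the genotype.

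Among the receptors, Egfr and Erbb2 were measured in every tumor. Egfr, by its brightest probe, lay below the pool in most epithelial tumors, with a lowest log2 ratio of -1.97, a median of -0.64 and a highest of 0.64, and it was above 0 in 4 of 29. In the spindle cell tumors its ratio ran from -1.96 over a median of -0.42 to 0.84. Erbb2 had a narrower range, from -1.12 over 0.37 to 1.16 in epithelial tumors and from -0.87 over 0.61 to 1.26 in spindle cell tumors. For both receptors the ranges of the 2 histologies overlapped over most of their length.

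Erbb3, the partner that recruits PI3 kinase, was well above background in the tumor channel in all 29 epithelial tumors and in 9 of 12 spindle cell tumors. Its log2 ratio ran from -0.78 over a median of 0.29 to 3.74 in epithelial tumors, and the highest 2 values belonged to 60L (3.74) and 42L4B (2.80). In spindle cell tumors it ran from -2.42 (M63L) over a median of 0.61 to 2.64 (M18L), and the SD was 1.85, against 0.95 in epithelial tumors and 0.59 in the 27 epithelial tumors without 42L4B and 60L. The spindle cell tumors therefore included both the lowest Erbb3 values of the series and values above those of nearly all epithelial tumors.

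Erbb4 was dim. Its brighter probe was well above background in the tumor channel in 12 of 29 epithelial tumors and in 1 of 12 spindle cell tumors (M128L), while the pool was well above background on all 41 arrays. The second probe reached that level on 3 arrays. The brighter probe's log2 ratio spanned -5.86 to -0.32 among epithelial and -5.61 to -1.47 among spindle cell tumors, and where the tumor signal was near background it has only a bound.

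Ereg, Btc and Areg had the widest spread of the 9 members tested in epithelial tumors. The SD of the log2 ratio over the 29 epithelial tumors was 2.34 for Ereg, 1.98 for Btc and 1.72 for Areg, at percentiles of 99.9, 99.4 and 98.6 among all tested genes, whose median SD was 0.56. Tgfa and Hbegf followed with SDs of 1.20 and 1.07, at percentiles of 93.2 and 89.7. Erbb3 had an SD of 0.95 and Nrg1 one of 0.87, and Egfr and Erbb2 had SDs of 0.65 and 0.63, at percentiles of 62.4 and 60.04. Without 42L4B and 60L the percentiles of Ereg, Btc and Areg were 99.9, 98.0 and 98.6. In spindle cell tumors the order differed, with SDs of 2.21 for Ereg, 2.15 for Areg and 1.85 for Erbb3, above those of the other 6 members.

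Areg, the EGFR ligand that estrogen induces in the pubertal gland, was above the pool in 25 of the 28 epithelial tumors in which it was measured (its spot on 42L4B was marked as an outlier). Its log2 ratio ran from -2.83 (an HFD-LFD tumor whose Areg signal was not well above background) over a median of 2.16 to 4.74 (31R). In spindle cell tumors it ran from -1.13 (M86R) over 2.61 to 4.34 (M63L), and the values fell into 7 tumors between 2.03 and 4.34 and 5 between -1.13 and 0.21. Ereg was well above background in the tumor channel in 14 of 29 epithelial and 9 of 12 spindle cell tumors, with log2 ratios from -4.92 to 3.82, both found in epithelial tumors on LFD-HFD. Btc was well above background in 18 of 29 epithelial and 9 of 12 spindle cell tumors, with a range from -4.51 to 4.53 in epithelial tumors, where the highest value was that of 60L. The lowest ratios of Ereg and Btc rest on tumor signals near background and are bounds only.

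Tgfa was above the pool in 28 of 29 epithelial tumors, with a lowest ratio of -1.53, a median of 1.44 and a highest of 4.84 (42L4B). The same HFD-LFD tumor was the lowest epithelial tumor for both Tgfa and Areg. Hbegf, an early response gene as well as an EGFR ligand, was well above background in every tumor and ran from -2.06 (90R) over 0.51 to 1.87 (82L) in epithelial tumors, a span of 15.2-fold. Nrg1, the ErbB3 and ErbB4 ligand, was also well above background in every tumor and ran from -0.83 over 0.74 to 2.71 in epithelial tumors.

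**Figure D1:**
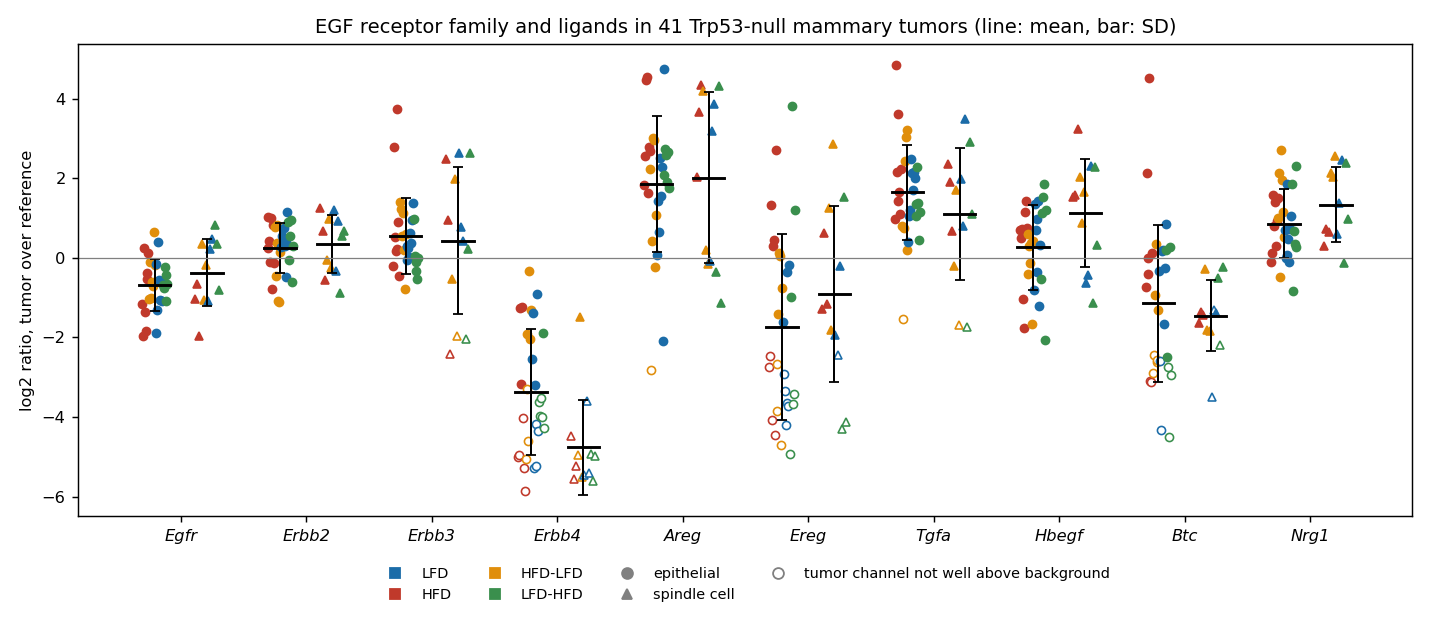
Log2 ratio of tumor over reference pool (vertical axis) for the 10 members (horizontal axis) in 29 epithelial tumors (circles) and 12 spindle cell tumors (triangles), coloured by dietary regimen, with the mean as a line and the SD as a bar. Open symbols mark tumors whose signal was not well above background, which are most of the Erbb4 values, the low Ereg and Btc values and the lowest few of Erbb3, Areg and Tgfa, and the histologies overlap for every member.

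The first comparison was that of spindle cell with epithelial tumors. None of the 9 members tested passed an adjusted p of 0.05 in the limma fit, whereas 20.2% of all 20913 genes did, 1657 of them with a higher and 2561 with a lower mean in the spindle cell group. Before adjustment, 1 of 9 members and 6973 of 20913 genes were under a p of 0.05. The nearest member was Hbegf. In spindle cell tumors its log2 ratio ran from -1.14 (M76R) over a median of 1.56 to 3.25 (M63L), and its mean of 1.14 ± 1.36 (SD, n = 12) stood against 0.26 ± 1.07 (SD, n = 29) in epithelial tumors. Of the 12 spindle cell tumors 4 exceeded the highest epithelial tumor and 3 were below 0, and the rest lay within the epithelial range. The difference was 0.87 (SE 0.38, 95% confidence interval 0.10 to 1.65, limma adjusted p = 0.101). Tumor M76R, the lowest for Hbegf, decided this call: without it the difference was 1.08 with a limma adjusted p of 0.038. Without M76R, M32L and M86R it was 1.40 with an adjusted p of 0.010. All 3 had Hbegf ratios below the spindle cell mean, so leaving them out was bound to raise the difference. M76R and M32L, both with low Hbegf, also had mean adipocyte marker ratios of 3.28 and 1.39, against -5.68 to -3.81 in the other 10 spindle cell tumors and -5.18 to -0.82 in epithelial tumors. Their mean fibroblast ratios (0.63 and 0.51) and endothelial ratios (1.04 and 0.90) were the highest of the spindle cell tumors. M18L, also with an Hbegf ratio below 0, had a mean adipocyte ratio of -5.24. The part of these cell types in the Hbegf values was not tested.

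With the channels read apart, the tumor channel of the Hbegf probe was 0.61 higher on the log2 scale in spindle cell tumors and the pool's channel was 0.26 lower, although the pool was meant to be the same RNA. For Erbb2 both channels were lower on the spindle cell arrays, by 0.98 and 1.07. The part of the scan session in these differences was not tested, since no session held both histologies.

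The remaining members had wide intervals. Ereg differed by 0.81 (95% confidence interval -0.73 to 2.35), Nrg1 by 0.48 (-0.13 to 1.08), Tgfa by -0.54 (-1.44 to 0.36) and Btc by -0.31 (-1.48 to 0.85). Areg (0.15, -1.09 to 1.39), Erbb2 (0.09, -0.36 to 0.55) and Erbb3 (-0.12, -0.97 to 0.73) had differences nearest to 0. Adjusted p-values of the 9 members in limma lay between 0.101 and 0.893. For Erbb4, a fit without the filter on dim probes gave -1.40 (SE 0.49) with an adjusted p of 0.030, in a fit that called 26.2% of 30175 genes. This rests on 12 and 1 tumors above background.

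Egfr gave a different answer by probe. In a limma fit over all 27307 probes that passed the filter, which called 20.4% of them, the brightest probe did not differ (0.31, SE 0.24, adjusted p = 0.377), whereas the 2 upstream probes were higher in spindle cell tumors, by 0.69 (SE 0.21, adjusted p = 0.016) and 0.62 (SE 0.20, adjusted p = 0.021). This fit was chosen after the probes' values had been seen. The mean ratio of the 2 upstream probes was -0.46 ± 0.54 (SD, n = 29) in epithelial and 0.19 ± 0.61 (SD, n = 12) in spindle cell tumors. The ratio of the brightest, 3′ probe minus the mean of the upstream probes was -0.22 ± 0.46 in epithelial and -0.57 ± 0.40 in spindle cell tumors, a difference of -0.35 (2-sided permutation test with 100000 resamples, p = 0.029). The 2 upstream probes correlated with each other at r = 0.68 in epithelial and 0.96 in spindle cell tumors, and with the 3′ probe at 0.65 and 0.68 in epithelial and at 0.87 and 0.91 in spindle cell tumors. In the channels read apart, upstream probe 2 was 0.44 higher in the tumor channel and 0.18 lower in the pool's channel of the spindle cell arrays, while upstream probe 1 was 0.04 lower in the tumor channel and 0.73 lower in the pool's channel. The difference in ratio of upstream probe 1 therefore stood in the pool's channel, with no higher tumor signal. That of upstream probe 2 stood in both channels, more in the tumor channel.

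**Figure D2:**
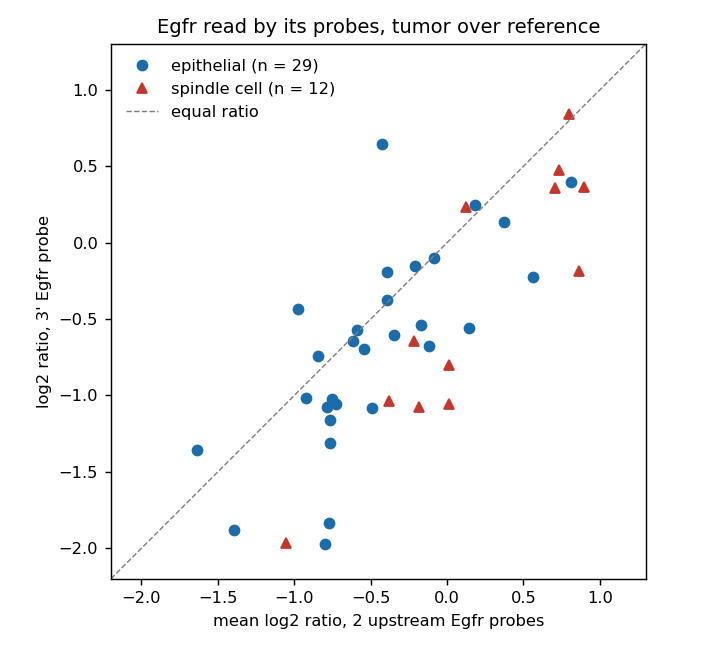
Log2 ratio of tumor over reference pool by the 3′ Egfr probe (vertical axis) and by the mean of the 2 upstream probes (horizontal axis) in each of 29 epithelial (circles) and 12 spindle cell tumors (triangles), with the line of equal ratios. The spindle cell tumors lie further to the right, with a mean upstream ratio of 0.19 against -0.46, and mostly below the line.

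Marker genes showed what else differed between the histologies. Fibroblast markers were higher in spindle cell tumors for 3 of 6 genes, namely the collagens Col1a1 (1.22) and Col3a1 (1.20) and the PDGF receptor Pdgfrb (0.92), with differences in log2 ratio past an adjusted p of 0.05 in limma. Of 6 mesenchymal markers, Vim (1.19) and Zeb1 (0.87) were higher, and of 4 endothelial markers, Pecam1 (0.87) and Kdr (0.56). None of 8 luminal and none of 4 basal epithelial markers passed. However, none of the 8 luminal markers was higher in spindle cell tumors, and their median difference was -0.74, against -0.07 over all tested genes. The mean luminal ratio ran from -1.79 over a median of 1.41 to 2.77 in spindle cell tumors and from -0.07 over 1.86 to 2.68 in epithelial tumors. All 8 luminal markers were well above background in most tumors of both groups. Of 5 macrophage markers none passed, and of 4 T cell markers Cd8a was lower (-1.38). Of 3 adipocyte markers, 4 skeletal muscle markers and the hormone receptor Esr1, none passed. Their part in the members' differences was not tested.

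Of 58 other genes of the pathway tested, 7 were higher and 4 lower in spindle cell tumors, or 18.97%, near the 20.2% called among all genes. The lists were chosen with earlier results of these data known. Of 8 sheddases and their regulators, Adam12 (0.81, SE 0.18) and Adam19 (0.89, SE 0.23), proteases that cut EGF-family precursors, passed and were higher in spindle cell tumors. None passed with a lower mean, and by sign alone 5 of the 8 were higher and the others lower. The median difference of these 8 genes was 0.17, against -0.07 over all tested genes. Of 10 immediate-early and ERK feedback targets, the AP-1 subunit Fosl1 rose by 1.71 (SE 0.52) and the ERK phosphatase Dusp5 by 1.13 (SE 0.28), while the ETS factor Etv5 fell by 1.16 (SE 0.35). The other 7 did not pass, and the median difference was -0.10. Of 23 adaptors and kinases, Map2k2 (0.38) and Akt1 (0.38) were higher and Ptpn11 (-0.30) and Pik3cb (-0.44) were lower. Of 13 negative regulators tested, the ubiquitin ligase Cblb was higher (0.50, SE 0.17) and the ERK pathway inhibitor Spred2 lower (-0.75, SE 0.20). None of the 4 other ligands tested (Egf, Epgn, Nrg2 and Nrg4) passed.

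Within the spindle cell group, dietary regimens were represented by 3 tumors each. For Hbegf the log2 ratios were -0.64 (M18L), -0.44 (M32L) and 2.30 (M33R) on LFD. On HFD they were 1.54 (M54R), 1.59 (M56LA) and 3.25 (M63L), and on HFD-LFD 0.87 (M128L), 1.67 (M129L) and 2.04 (M118R). On LFD-HFD they were -1.14 (M76R), 0.32 (M86R) and 2.30 (M84R). The 6 tumors with pubertal HFD thus lay between 0.87 and 3.25, while the other 6 lay between -1.14 and 2.30, so that the groups overlapped. The difference for pubertal HFD was 1.38 (SE 0.63, unadjusted p = 0.048, limma adjusted p = 0.522), and no gene passed an adjusted p of 0.10 in this comparison (1987 of 20911 at an unadjusted p under 0.05). In epithelial tumors the same difference was -0.27, and the interaction of histology with pubertal HFD for Hbegf was 1.64 (SE 0.74, limma adjusted p = 0.352). None of the 9 members passed in that interaction, in which 0.445% of genes did. In the interaction of histology with onset, 0 members and 0.00478% of genes passed by limma, and 0 members at an unadjusted p under 0.05.

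The second comparison was that of the dietary regimens in the 29 epithelial tumors. No member passed an adjusted p of 0.10 in the limma test over the 4 regimens, which called 0.473% of genes, or in any of the 6 pairs of regimens. The pair of HFD-LFD with LFD called 1.25% of genes, LFD-HFD with HFD 0.263%, HFD-LFD with HFD 0.0287%, and the other 3 pairs 0%. Of the 54 values for members in these pairs, Areg in HFD-LFD against HFD alone had an unadjusted p under 0.05. In that pair 2796 genes, 13.37% of those tested, were under 0.05 before adjustment in limma. Over the 6 pairs this share ran from 5.07% to 13.55%.

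Areg showed the widest spread of regimen means, 1.98 on the log2 scale. On LFD its ratio ran from -2.10 over a median of 1.49 to 4.74, and on HFD from 1.63 over 2.70 to 4.56 (7 tumors). On HFD-LFD it ran from -2.83 over 1.09 to 3.03, and on LFD-HFD from 1.76 over 2.33 to 2.75. The low values, at or below 0.65, were found only in 3 LFD and 3 HFD-LFD tumors, the 2 regimens that ended on the low-fat diet. Each of these regimens had slides of its own, and 1 slide held tumors of more than 1 regimen (2 on HFD and 2 on LFD-HFD), so slide and adult diet cannot be told apart within a slide. Between HFD-LFD and HFD the difference was -1.98 (SE 0.82, 95% confidence interval -3.66 to -0.30, unadjusted p = 0.023, limma adjusted p = 0.299). Without the arrays that stood apart, 42L4B and 60L, it was -1.71 with a limma adjusted p of 0.540. The spindle cell tumor M86R was also left out in that setting, but this comparison holds no spindle cell tumor.

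Grouped by the adult diet, the 13 epithelial tumors on adult HFD with an Areg value had a mean log2 ratio of 2.64 ± 0.93 (SD) and ran from 1.63 to 4.56. The 15 tumors on adult LFD had a mean of 1.19 ± 1.97 (SD) and ran from -2.83 to 4.74. The upper ends of the groups overlapped, and the adult LFD group alone reached below 1.63. The difference of 1.45 (SE 0.57, 95% confidence interval 0.28 to 2.61) had an unadjusted p of 0.016 and a limma adjusted p of 0.947. With slide as a random block it was 1.498 (unadjusted p = 0.035, limma adjusted p = 0.9995). None of the 9 members and 0% of the 20913 genes passed an adjusted p of 0.10 in this comparison, and 1 member and 837 genes, 4.00% of those tested, were under 0.05 before adjustment. Ereg differed by 1.003 (-0.67 to 2.67) and the other 7 members by -0.15 to 0.45.

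For pubertal HFD, over the 29 epithelial tumors none of 9 members and 0% of genes passed an adjusted p of 0.10 in limma, and before adjustment 0 members and 2066 genes were under 0.05. Over all 41 tumors none of the members passed, against 0.00956% of genes, and 0 members had an unadjusted p under 0.05. In epithelial tumors the members' differences lay between -0.27 (Hbegf) and 0.57 (Btc), but several rested on 42L4B and 60L, which are in the pubertal HFD group. Erbb3 differed by 0.52 (-0.15 to 1.20), and by 0.15 without the arrays that stood apart. Without these arrays the difference of Btc became -0.07 and that of Tgfa turned from 0.31 to -0.06. Tgfa on HFD ran from 0.98 to 4.84, and its 2 highest values were again those of 42L4B and 60L.

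In the pairs of regimens, 1 of the 58 pathway genes passed, in HFD-LFD against LFD, a comparison that called 1.25% of all genes. This gene, Spry2, a feedback inhibitor of receptor tyrosine kinase signaling, was higher on HFD-LFD than on LFD by 1.55 (SE 0.33, limma adjusted p = 0.031), and it was 1 of 13 negative regulators tested.

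**Figure D3:**
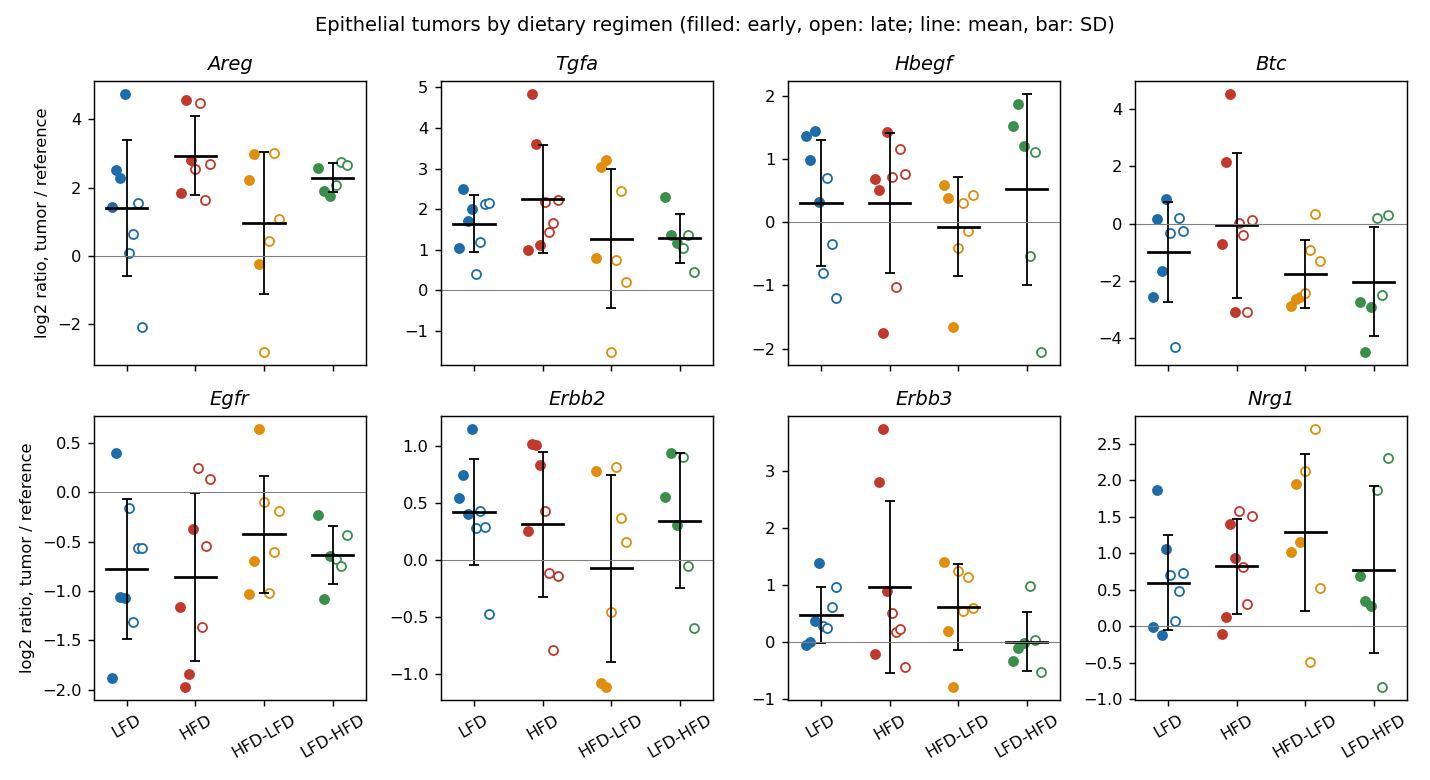
Log2 ratio of tumor over reference pool (vertical axes, which differ between panels) in the 29 epithelial tumors by dietary regimen for 8 members, with filled circles for early and open circles for late tumors, the mean as a line and the SD as a bar. Regimens overlap for every member, and the Areg values at or below 0.65 lie only on LFD and HFD-LFD.

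The third comparison was that of early with late epithelial tumors. None of 9 members passed an adjusted p of 0.10 in limma, against 0.143% of genes, and before adjustment 1 of 9 members and 2753 of 20913 genes were under 0.05. Over all 41 tumors 0 of 9 members and 0.0143% of genes passed, with 0 members under 0.05 before adjustment. Onset was tied to slide, since 3 of the 8 slides with epithelial tumors held both early and late tumors, and 1 mouse gave a tumor to each group. The count of members under 0.05 before adjustment was 0 with slide as a random block, 3 with slide as a fixed term, 4 with 1 tumor per mouse and 3 with the exchanged labels of the HFD tumors, while 0 passed after adjustment in each. The share of all genes under 0.05 in these settings was not computed, so the counts do not set the members apart. Tgfa came nearest. In 14 early tumors its log2 ratio ran from 0.80 over a median of 1.85 to 4.84, and in 15 late tumors from -1.53 over 1.37 to 2.44. Early tumors thus had no value under 0.80, whereas the late group reached lower, and the groups overlapped above that level. The difference was 0.91 (SE 0.40, 95% confidence interval 0.10 to 1.73, unadjusted p = 0.030, limma adjusted p = 0.325). Without 42L4B and 60L (and the spindle cell tumor M86R) it was 0.56 with an adjusted p of 0.601, so that the value rested in part on these 2 arrays. With slide as a random block the Tgfa difference was 0.78 (limma adjusted p = 0.512), and with slide as a fixed term it turned to -0.24 (adjusted p = 0.940). Within the 3 slides that held both groups it was 0.42, -0.78 and -0.19, with 1 to 3 tumors a group. On the slide with -0.19 both early tumors were on LFD-HFD and both late ones on HFD. The slide with -0.78 held the HFD tumors with exchanged labels. Tgfa was thus higher in the early group on 1 of the 3 slides, and with so few tumors onset and slide cannot be told apart.

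The mean Hbegf ratio was 0.64 ± 1.102 (SD) over the 14 early tumors, against -0.09 ± 0.94 (SD) over the 15 late ones. It was above 0 in 12 of 14 early and 7 of 15 late tumors. The difference of 0.72 (SE 0.36, limma adjusted p = 0.392) became 0.93 without the arrays that stood apart (adjusted p = 0.325). With slide as a fixed term it was 1.24 (adjusted p = 0.542), and within the 3 slides it was 2.36, 1.20 and 0.43. The slide with 0.43 also set LFD-HFD against HFD, and the slide with 1.20 held the HFD tumors with exchanged labels. Areg differed by 1.03 (-0.19 to 2.26), and by -0.59 with slide as a fixed term, and Erbb2 by 0.39 (-0.07 to 0.84). Egfr (-0.33 by its brightest probe, -0.18 and 0.02 by the upstream probes), Btc (-0.37) and Nrg1 (-0.20) did not pass either, with adjusted p-values of at least 0.552 in limma. Without the arrays that stood apart the difference of Btc was -1.15 (limma adjusted p = 0.454). With slide as a fixed term in limma, Btc differed by -2.165 (unadjusted p = 0.016, adjusted p = 0.514). Erbb2 differed by 0.70 in that fit (unadjusted p = 0.042, adjusted p = 0.572). Within the 3 slides Btc differed by -3.84, -1.78 and -1.295, and Erbb2 by 0.86, 0.67 and 0.61. The Btc value of -3.84 rests on 1 early tumor with a ratio of -4.51.

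**Figure D4:**
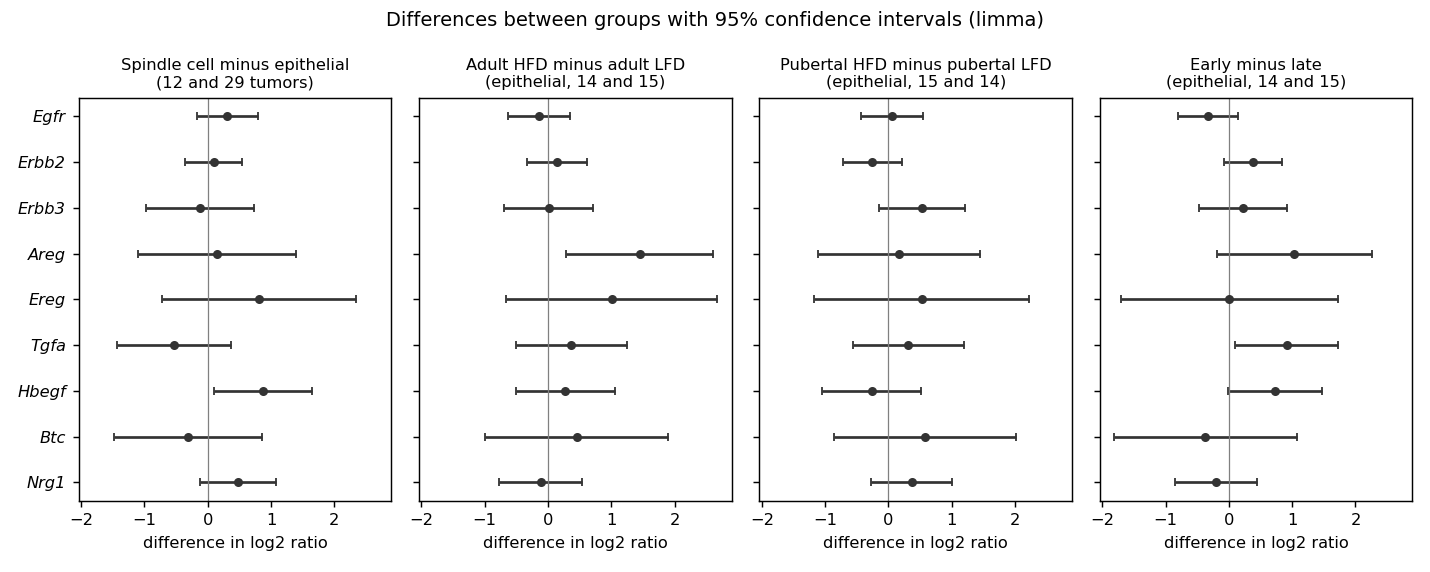
Difference in mean log2 ratio (horizontal axes, log2 units) of the 9 tested members in the comparisons of histology, adult HFD, pubertal HFD and onset, each with its 95% confidence interval from limma. The intervals of Hbegf for histology (0.10 to 1.65), Areg for adult HFD (0.28 to 2.61) and Tgfa for onset (0.10 to 1.73) exclude 0 before adjustment over all genes.

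The members were then set against each other. Over the 29 epithelial tumors, 36 pairs were compared by Pearson and Spearman correlation with 2-sided permutation tests of 100000 resamples, adjusted over the 36 pairs by Benjamini-Hochberg. Pearson's r passed an adjusted p of 0.05 for 2 pairs. Hbegf and Btc ran in opposite directions (r = -0.55, permutation p = 0.0021, adjusted p = 0.038; rho = -0.59, permutation p = 0.00086, adjusted p = 0.031). This held with values centred on each slide (r = -0.69, adjusted p = 0.0022), but not after normexp and loess (r = -0.38, adjusted p = 0.135). Without the 2 tumors farthest from the Hbegf median r was -0.41 (adjusted p = 0.2502), and without 42L4B and 60L it was -0.50 (adjusted p = 0.134). Erbb3 and Btc ran together (r = 0.60, permutation p = 0.00095, adjusted p = 0.034; rho = 0.37, permutation p = 0.050, adjusted p = 0.225). Without the 2 tumors farthest from the Erbb3 median, which were 42L4B and 60L, r was 0.19, so this relation rests on those samples.

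The 3 ligand genes Ereg, Areg and Btc lie side by side on chromosome 5, with their probes at 91522553, 91570090 and 91786948 of mm9. Their ratios were not tightly linked. In epithelial tumors r was 0.28 for Areg with Ereg (permutation p = 0.144, adjusted p = 0.306), 0.35 for Areg with Btc (permutation p = 0.073, adjusted p = 0.219) and 0.10 for Ereg with Btc (permutation p = 0.607, adjusted p = 0.752).

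In the 12 spindle cell tumors, a set added after the data had been seen, 2 of 36 pairs passed by Pearson's r and 0 by Spearman's rho (6 pairs had an unadjusted permutation p under 0.05 for r). The strongest was Erbb2 with Erbb3 (r = 0.86, permutation p = 0.00052, adjusted p = 0.019; rho = 0.82, permutation p = 0.0020, adjusted p = 0.053). Without the 2 tumors farthest from the Erbb2 median r was 0.76 (adjusted p = 0.114). In epithelial tumors the same pair had r = 0.48 (permutation p = 0.0087, adjusted p = 0.078).

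Receptors also followed the markers of cell lineages, each taken as the mean log2 ratio of its list. Within each histology 54 relations were computed (9 members and 6 marker lists) and adjusted together, on 28 epithelial tumors, since 60L lacked too many markers, and 12 spindle cell tumors. By Pearson's r, 8 passed an adjusted p of 0.05 in epithelial and 7 in spindle cell tumors. The share of all tested genes that follow these lists as closely was not computed, so the counts do not set the members apart from other genes. Erbb2 rose with the luminal markers in epithelial tumors (r = 0.75, permutation p = 1e-05, the smallest these permutations can give, adjusted p = 0.00054; rho = 0.58, permutation p = 0.0014, adjusted p = 0.034). Without the 2 tumors farthest from the Erbb2 median r was 0.59. Erbb3 rose with the luminal markers in epithelial tumors (r = 0.56, permutation p = 0.00295, adjusted p = 0.040, and 0.50 without the 2 farthest tumors; rho = 0.50, permutation p = 0.0064, adjusted p = 0.064) and more tightly in spindle cell tumors (r = 0.90, permutation p = 6e-05, adjusted p = 0.0032, and 0.89 without the 2 farthest; rho = 0.90, permutation p = 0.00021, adjusted p = 0.011).

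Erbb3 in spindle cell tumors fell as the mesenchymal markers rose (r = -0.81, permutation p = 0.0017, adjusted p = 0.019; rho = -0.81, permutation p = 0.0022, adjusted p = 0.024). M63L, M76R and M129L, with Erbb3 ratios of -2.42, -2.03 and -1.97, also had the lowest luminal means of the group, at -1.22, 0.19 and -1.79. Their Erbb3 signals were not well above background. M86R, M54R and M18L, with Erbb3 ratios of 2.63, 2.49 and 2.64, had luminal means of 2.77, 2.25 and 1.93. The spindle cell tumors thus formed a range from luminal-marker-high with high Erbb3 to luminal-marker-low with low Erbb3.

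Egfr followed other lists. In epithelial tumors its brightest probe rose with the basal markers Krt5, Krt14, Krt17 and Trp63 (r = 0.68, permutation p = 0.00010, adjusted p = 0.0027, and 0.61 without the 2 farthest tumors; rho = 0.56, permutation p = 0.0024, adjusted p = 0.034). The 2 upstream Egfr probes had r = 0.47 with the same list (permutation p = 0.012, adjusted p = 0.0998 over 12 relations; rho = 0.44, permutation p = 0.020, adjusted p = 0.080). Nrg1 also rose with the basal markers (r = 0.52, permutation p = 0.0044, adjusted p = 0.045; rho = 0.56, permutation p = 0.0025, adjusted p = 0.034). In spindle cell tumors Egfr rose with the fibroblast markers (r = 0.79, permutation p = 0.0025, adjusted p = 0.022, and 0.83 without the 2 farthest; rho = 0.83, permutation p = 0.0013, adjusted p = 0.020), and the upstream probes had r = 0.59 (permutation p = 0.045, adjusted p = 0.178; rho = 0.71, permutation p = 0.012, adjusted p = 0.080). Ereg in epithelial tumors rose with the mesenchymal markers (r = 0.62, permutation p = 0.00041, adjusted p = 0.0074; rho = 0.50, permutation p = 0.0071, adjusted p = 0.064) and the fibroblast markers (r = 0.50, permutation p = 0.0061, adjusted p = 0.045; rho = 0.48, permutation p = 0.0098, adjusted p = 0.075), and without the 2 farthest tumors r was 0.47 and 0.38. With the endothelial markers Ereg passed by rho but not by r. There r was 0.47 (permutation p = 0.012, adjusted p = 0.071) and rho was 0.59 (permutation p = 0.0014, adjusted p = 0.034). Ereg itself was above background in 14 of 29 epithelial tumors. In spindle cell tumors Erbb2 fell as macrophage (r = -0.82, permutation p = 0.0011, adjusted p = 0.019) and endothelial markers rose (r = -0.80, permutation p = 0.0011, adjusted p = 0.019), with rho of -0.83 for both (permutation p = 0.0015, adjusted p = 0.020). Erbb3 (r = -0.76, permutation p = 0.0041, adjusted p = 0.032) and Tgfa (r = -0.81, permutation p = 0.00165, adjusted p = 0.019) also fell as macrophage markers rose. In epithelial tumors Egfr fell as luminal markers rose (r = -0.50, permutation p = 0.0067, adjusted p = 0.045). Without the 2 farthest tumors r was -0.23, and by the upstream probes it was -0.10. Btc rose with endothelial markers (r = 0.50, permutation p = 0.0054, adjusted p = 0.045, rho = 0.28). These relations to marker lists were added after the data had been seen.

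The genes most like each member over the 29 epithelial tumors were taken among those whose tumor signal exceeded background on most epithelial arrays, and they are given as descriptions with no test, since all points share the pool and the arrays. Egfr was most like Htra1 (r = 0.83), Rnf144b (0.74) and Plekha1 (0.74). Areg was most like Plk2 (0.79), Lypd3 (0.76) and St3gal1 (0.75). Hbegf was most like Fam38a (0.87), Plaur (0.86), the urokinase receptor, and Snai1 (0.84), a transcription factor of epithelial-mesenchymal transition. Erbb3 was most like Slc25a10 (0.85), an unnamed transcript (0.83) and Ap1m2 (0.82), but without 42L4B and 60L these were 0.53, 0.47 and 0.46, and none of the 3 was among the 50 most alike. Erbb2 was most like 2610507B11Rik (0.87), Grb7 (0.85) and the epithelial cadherin Cdh1 (0.83).

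For Erbb2, many of the most alike genes lay on its own chromosome. Of the 50 genes most like it, 23 lay on chromosome 11, which holds 7.91% of the genes tested. Within 2 Mb of Erbb2 lay 10 of the 50, and 139 of all 20912 other genes tested. Without 42L4B and 60L the counts were 27 and 11 of 50. For the other 8 members tested, between 0 and 7 of the 50 lay on the member's own chromosome. High values near Erbb2, chosen after they had been seen, included Grb7, an adaptor that binds ErbB2, with its probe at chr11:98316616-98316675 (r = 0.85 in epithelial and 0.87 in spindle cell tumors), Pgap3 (0.81 and 0.77), Stard3 (0.78 and 0.65) and Psmd3 (0.83 and 0.60). Genes as near had low values, such as Pnmt (0.18 in epithelial tumors), Tcap (0.05), Ikzf3 (0.29) and Neurod2 (-0.14), and Top2a, further away, had 0.39. The likeness was not shared by all neighbours: over the 139 tested genes within 2 Mb the median r was 0.17, against 0.18 over the rest of chromosome 11 and 0.01 over all tested genes, and most keratin genes on one side had a negative r. Egfr, which lies on the same chromosome, had 3 of its 50 most alike genes there.

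**Figure D5:**
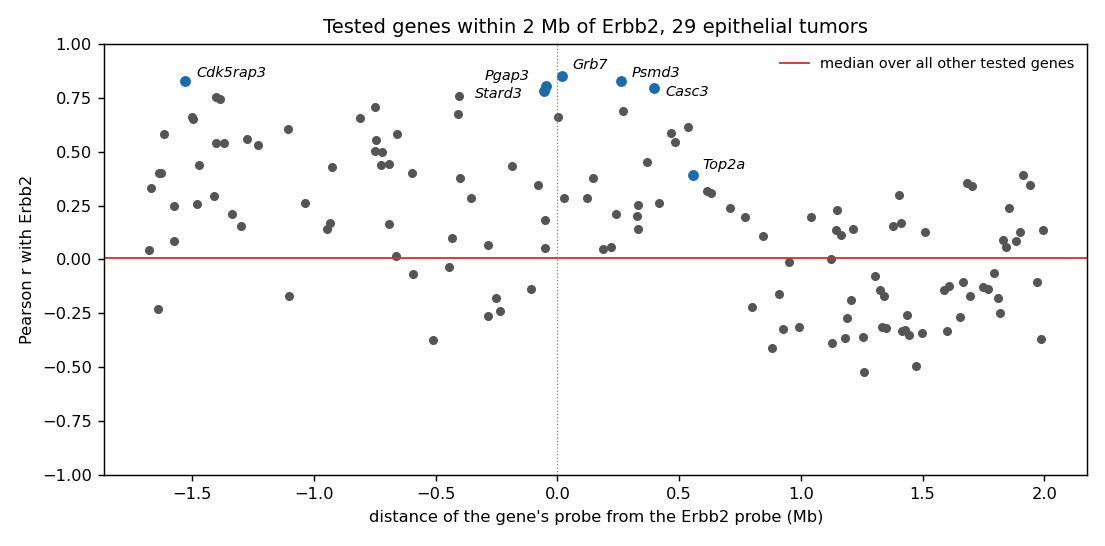
Pearson r of log2 ratios with Erbb2 over the 29 epithelial tumors (vertical axis) for each tested gene within 2 Mb of the Erbb2 probe, against the distance between probes in Mb (horizontal axis); the red line is the median over all other tested genes, 0.01. Grb7 (0.85), Psmd3 (0.83), Pgap3 (0.81) and Stard3 (0.78) stand high beside Erbb2, while genes beyond 1 Mb on the right lie mostly near or below 0.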

How the data were processed

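Total RNA of 41 tumors was hybridised by the authors to 2-colour Agilent 4x44K arrays. The deposited scanner files hold an intensity per spot and channel, processed by Agilent Feature Extraction (11.0.1.1 for epithelial and 10.5.1.1 for spindle cell arrays per the file headers, and 8.5.1.1 in the submitters' processing notes) with spatial detrending and linear and lowess dye normalization. The deposited log10 ratio column was not used for tests. A deposited table of log2 ratios processed by the authors served as an alternative, in which missing values remain.

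Here log2 of processed Cy5 over Cy3 was taken, spots marked as outliers were set to missing, spots of a probe were averaged, and a probe was tested if Cy5 and Cy3 both exceeded a signal of 10 on 80% of arrays or more (27307 of 39429 probes). The probe of highest mean signal stood for each of 20913 genes. Groups were compared with limma 3.58.1 (lmFit and eBayes, R 4.3.3) with Benjamini-Hochberg adjustment over all genes, at 0.05 for histology and 0.10 otherwise. The authors used SAM, which was not run here. The fit was tested on simulated data. The number of arrays limits the precision, and where tumors shared a host or donor the p-values measure only the spread between these tumors. Named genes were the members, Trp53, the genes of the pathway and marker lists past the threshold (at most 4 a list and direction) and the 3 genes most like a member for at most 5 members. Neighbours of Erbb2 were named after their values had been seen. The members and lists were chosen with earlier results of these data known.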

Additional observations from a re-analysis of the deposited data

Results flagged for a closer look

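Among 36 groups of epithelial tumors (9 members in 4 regimens), 1 tumor stood apart from the others of its group: Erbb3 in a late LFD-HFD tumor, with a log2 ratio of 0.989 against -0.52 to 0.04 in the other 5. The gap to its nearest neighbour was 0.63 of the group's range, just past the critical value for 6 samples. Chance gives about 1 such group in 20. None of the members' interactions of histology with pubertal HFD or onset passed an adjusted p of 0.10.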

How the results depend on the processing

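The count of members past the threshold was 0 in every comparison, and 4 of 6624 recomputed member differences passed. In spindle cell against epithelial tumors it was 1 without a filter on dim probes (Erbb4), 1 with the mean over the probes of a gene (Egfr, 0.54, limma adjusted p = 0.047) and 1 without M32L, M86R and M76R (Hbegf), and leaving out each tumor in turn gave 0 to 1. In the remaining alternatives and comparisons it was 0, and 181 uncalled differences changed sign. Of 36 correlations in epithelial tumors, 2 passed by Pearson's r, 3 with values centred on each slide, 1 after normexp and loess, 0 without the 2 farthest tumors and 0 without 42L4B and 60L; the cause was not tested. With slide as a fixed term, histology, adult HFD and the regimens could not be fitted. No paired analysis was possible because at most 1 mouse gave tumors to both groups of any comparison. Signals near background limit Erbb4, Ereg and Btc.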
